A study of Mus musculus with 2 samples.

Results

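Single-exon antisense loci were stretches of the genome in which unspliced long reads lay on the strand opposite to an annotated gene. They were built from the transcript models that the authors had classed as Antisense with 1 exon, 14775 models in replicate 1 and 15751 in replicate 2, joined wherever they overlapped on the same strand. Of the 22211 loci so formed, 569 were kept because they held 10 or more reads in each library, lay on the mouse genome and did not overlap Gm26917, whose antisense reads (3797 in replicate 1 and 5976 in replicate 2) were left out. The loci were thus selected on their antisense read counts in both libraries, and their abundance is a description, not a finding. Both libraries belong to a single group: left cerebral cortex taken at 14 days from females of B6CASTF1/J, an F1 cross of C57BL/6J and CAST/EiJ, with no treatment or second condition. Each library was made from 2 µg of total RNA with added ERCC and SIRV spike-in RNAs. The labels number them as biological replicates. The sample text of replicate 1 may describe tissue pooled from 3 females, that of replicate 2 names 1 female, and both carry the same donor entry.

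Antisense transcripts are made from the DNA strand opposite to a gene and can share sequence with its mRNA, most often over one end of it. In the brain, long 3′ untranslated regions of neuronal and glial mRNAs and the long introns of synaptic genes give much room for such overlap. Some antisense transcripts are known to act on the gene they overlap, as in imprinted clusters, while for most no role is known. A read on the opposite strand can also arise while RNA is copied into cDNA, and the counts alone do not tell these sources apart.

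The sequences at the ends of the loci are shown first, because many last-exon loci had end sequences in common that the rule did not use. All were read on the antisense strand from the GENCODE M21 transcripts (GRCm38), as 30 bases at an end of the most abundant model. In the first set, 10 bases of the model come before the 20 genomic bases that follow its 3′ end, and capitals mark each A in those 20 bases. The 30 bases shown lay at chr9:52676793-52676822 for AI593442, at chr2:156391505-156391534 for 2900097C17Rik and at chr13:99424405-99424434 for Map1b locus 2, all on the plus strand.
AI593442: tctgaggctcAAAAAAAAAAAAAAAAAAAA
2900097C17Rik: cacaaaatgtAAAAAAAAAAAAAAAAAAAA
Map1b locus 2: ctcgagtagctAAAAAAAAAAAAAAAAAAA
Of the last-exon loci whose flank could be read, these are the 3 most abundant with 12 or more A in the 20 bases, at 20, 20 and 19. These A are part of the annotated sequence and were not read from a poly(A) tail.

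Abundant last-exon loci with a readable flank and no such stretch were Slc1a2 locus 1, Snhg11 and Shank1, all on the minus strand and shown in the same way. The bases shown lay at chr2:102784115-102784144, chr2:158382118-158382147 and chr7:44357878-44357907, in that order.
Slc1a2 locus 1: ttttcttcagcttcctgcAccttttctAgg
Snhg11: gctttgtttcAggActgggAAgAAtccAgg
Shank1: cggagagggcctcAgcAggccAgAggtgtg
The 20 bases held 2, 7 and 4 A.

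Another set shows the 5′ end, with 20 genomic bases before the first base of the model and 10 bases of the model itself. Capitals mark GGG directly before the model. Slc1a2 locus 1 was read at chr2:102786739-102786768, Snhg11 at chr2:158384192-158384221 and Slc1a2 locus 2 at chr2:102789413-102789442, all on the minus strand.
Slc1a2 locus 1: gaacatggacggacatgGGGcaaatgggaa
Snhg11: tcaagaagactctcctgGGGgctggagaga
Slc1a2 locus 2: aacaatcatgagtacagGGGtttcataggt
They are the 3 most abundant last-exon loci found with this triplet. The triplet was looked for after such windows had been read.

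The libraries held 1072344 mouse reads in replicate 1 and 753520 in replicate 2. Single-exon antisense models took 70106 of them in replicate 1 and 67535 in replicate 2, and the 569 loci took 36985 and 29414, or 3.45% and 3.90% of mouse reads. Levels are given as RPM, reads scaled to the library's total of mouse reads. A long read is counted once whatever its length, so reads of a locus and of a gene are compared without dividing by length. Per read, this scale gives 0.933 RPM in replicate 1 and 1.33 RPM in replicate 2. All markers of excitatory and inhibitory neurons, astrocytes and oligodendrocytes that were looked at had reads in both libraries, as a cortex should. In such bulk tissue, fewer cells of a type and less RNA per cell cannot be told apart.

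Mean levels of the 569 loci ran from 11.3 to 3019 RPM with a median of 23.0, and 51 loci reached 100 RPM. The 10 largest loci held 37.7% of the reads of all 569 in replicate 1 and 36.7% in replicate 2. The loci were 109 to 11463 bases long (median 2942). Just inside the rule, 115 loci with 10 to 11 reads in the smaller library had a median of 13.8 RPM, and just outside, 164 loci with 8 to 9 reads had a median of 11.1 RPM. An annotated gene lay on the opposite strand of 567 loci, 530 genes in all, 34 of them with 2 or more loci. The locus at chr18:33192544 (20 reads in replicate 1 and 17 in replicate 2) and 1 locus on an unplaced part of the X chromosome (15 and 11 reads) had no opposite-strand gene in GENCODE M21. Where several genes overlapped, as for 45 loci, the one with the most exonic bases in the locus was taken as the sense gene. Of the 567, 529 had a protein-coding sense gene and 15 a lincRNA.

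The ERCC spike-in RNAs, which have no antisense gene, were counted in the same way after other values had been seen. Over all of them the antisense share was 0.864% in replicate 1 and 0.869% in replicate 2, and the lower Wilson 95% limit of 556 of the 567 loci lay above its upper limit in both libraries, while 11 did not. Of 56 ERCC RNAs with a read, 52 had reads in the sense direction alone, 14807 in replicate 1 and 8779 in replicate 2, and no antisense read, which allows a share of up to 0.0203% and 0.0342% when 3 reads are taken as the limit of a count of 0. The other 4 had antisense reads alone, so the pooled share rests wholly on them. Whether the reference of these 4 has the orientation of the RNA that was added was not checked, and the pooled share may not be a background level. Nearly all of these were on ERCC-00009 (87 reads in replicate 1 and 56 in replicate 2) and ERCC-00116 (40 and 20 reads), both without a sense read. Among the 567 loci with a sense gene, the antisense share of all antisense and sense reads was at least 0.545%. The lower Wilson limit lay above the upper Wilson limit of the 52 spike-ins for 567 loci in each library. By this method the limit of the 52 was 0.0259% in replicate 1 and 0.0437% in replicate 2. Those 52 were set apart because they had no antisense read, and the loci were chosen for 10 or more antisense reads in each library. Both comparisons with the spike-ins draw on the values that the rule used, so they do not test the loci against a background level. The spike-ins are short and unspliced, so they do not stand for long mRNAs, and all intervals and limits cover counting error only.

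The most abundant loci lay in last exons and mostly outnumbered their sense gene. Slc1a2 locus 1 lay at chr2:102784135-102786748 on the minus strand, wholly within the 3′ untranslated region of Slc1a2, the main glutamate transporter of astrocytes. It had 3081 reads in replicate 1 and 2385 in replicate 2, or 2873 and 3165 RPM (3019 ± 206 RPM, SD, n = 2). The sense gene had 362 and 278 reads, so antisense reads made up 89.5% in replicate 1 and 89.6% in replicate 2. Both libraries thus showed the same balance of strands at this locus.

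Snhg11, a host gene of small nucleolar RNAs that GENCODE lists as protein-coding, came next with 1578 antisense reads in replicate 1 and 2271 in replicate 2, against 85 and 116 sense reads. AI593442 had 1540 antisense reads in replicate 1 and 859 in replicate 2, against 22 and 19 sense reads. In both genes the lower antisense level of the 2 libraries stood above the higher sense level. Their loci were named for high abundance and a high ratio, which favours such a gap.

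Shank1, a scaffold of the postsynaptic density, had 1393 antisense reads in replicate 1 and 939 in replicate 2, against 40 and 32 sense reads. Map1b locus 2, in the gene of a microtubule-associated protein of growing axons, had 1003 and 567 antisense reads, against 33 and 19 sense reads. Adam22, a membrane protein of the synapse that binds secreted LGI1, had 706 and 432 antisense reads, against 34 and 35 sense reads. Antisense and sense read numbers did not overlap for any of these genes, whose loci were named for high abundance and a high ratio. That choice favours such a gap. By the looser measure of more antisense than sense reads in both libraries, 218 of all 567 loci (38.4%) qualified. Shank1 and Map1b mRNAs are long, and the number of sense reads is what these libraries captured, not a measure of all mRNA.

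Cplx2, which encodes complexin 2, a regulator of vesicle fusion, had 991 antisense reads in replicate 1 and 865 in replicate 2, against 242 and 213 sense reads. The lincRNA gene 2900097C17Rik had 1186 and 803 antisense reads, against 513 and 366 sense reads, the smallest excess among the 10 loci. Dbpht2, listed as a lincRNA, had 652 and 554 antisense reads, against 2 and 8 sense reads.

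**Figure D1:**
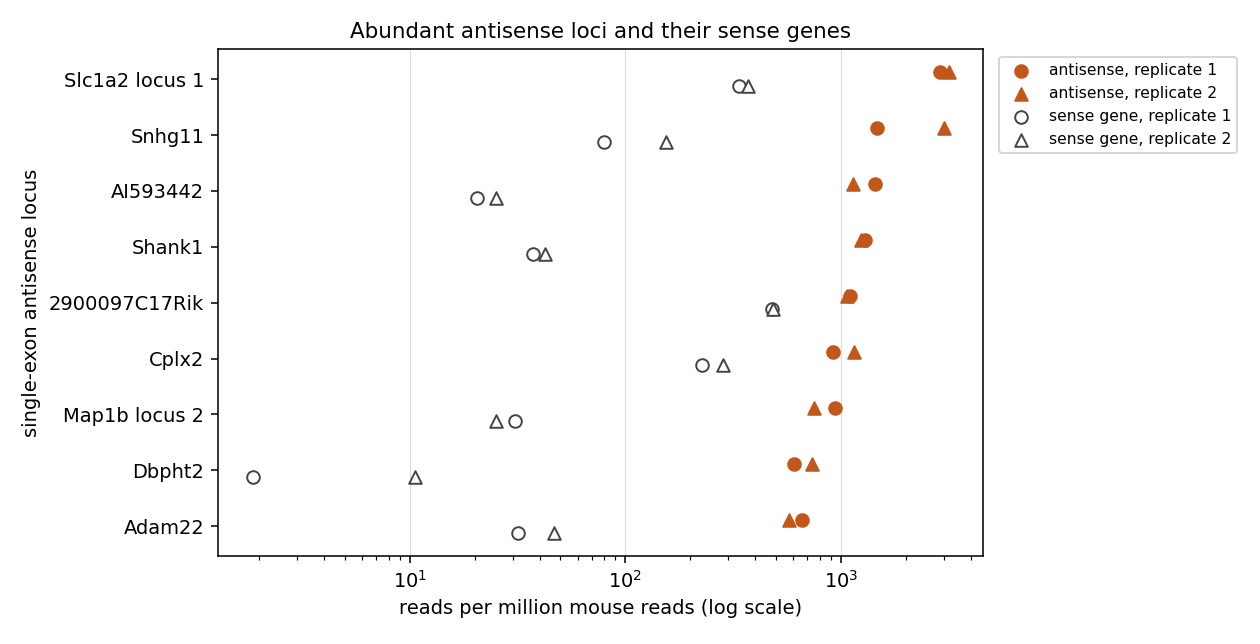
Level in RPM on a log axis for 9 of the 10 most abundant single-exon antisense loci (filled) and of their sense genes (open) in replicate 1 (circles) and replicate 2 (triangles). In each row both filled points lie right of both open points, in loci picked for a high antisense level. Slc1a2 locus 1 stands highest at 2873 and 3165 RPM, and the filled points of Snhg11 are farthest apart, at 1472 and 3014 RPM.

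Across all 567 loci the antisense to sense read ratio spanned a wide range. The log2 ratio (pseudocount of 0.5 reads, mean of both libraries) ran from -7.07 to 7.03 among loci with a sense read, and the median of all 567 was -0.44, that is 0.736 antisense reads per sense read. It was -0.70 in replicate 1 and -0.24 in replicate 2. The other 9845 mouse loci with 2 or more reads and a sense gene had a median of -3.46, a difference that the rule favours since it chose on antisense reads. Antisense reads exceeded sense reads in both libraries at 218 of the 567 loci (38.4%) and fell short of them in both at 291. Sense reads were absent at 14 loci, and the median stayed -0.44 when these loci were set to the 3 reads that a count of 0 allows. The libraries gave like ratios (Pearson r = 0.960 and Spearman rho = 0.962 over 567 loci that share sense genes and libraries), while antisense and sense levels showed hardly any correlation (rho = -0.026 over the same loci). The rule cut off low antisense levels, so the last value holds for the chosen loci only and not for antisense loci at large.

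The balance depended on which sense reads were counted. With annotated transcripts alone, leaving out the authors' class Genomic and other unannotated models, the median log2 ratio was 1.26, and with the sense reads of models whose exons lay over the locus it was 2.03, or 1.91 with loci without such reads at 3 reads. At 134 loci no sense read lay over the locus, 116 of them intronic. By this definition a spliced sense read does not count over an intron it skips, so few such reads at intronic loci follow in part from the definition. Among the 422 loci whose sense gene had 10 or more reads in each library, the 8 highest ratios were all in last exons. The first 7 were AI593442 at 54.9 antisense reads per sense read, Shank1 at 31.5, Map1b locus 2 at 29.5, Snhg11 at 18.97, Tmem170b at 17.1, Adam22 at 15.8 and Dpysl2 locus 2 at 14.5. Dpysl2 encodes a tubulin-binding protein of axon growth, and its locus had 249 antisense reads in replicate 1 and 277 in replicate 2, against 24 and 13 sense reads. Tmem170b had 268 and 188 antisense reads, against 16 and 10 sense reads.

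The 5 lowest ratios belonged to intronic loci in abundantly read genes. With at least 10 antisense reads required in each library, ratios this low need many sense reads, so that abundance follows from the rule. Cpe, a carboxypeptidase that processes neuropeptides, had 30 antisense reads in replicate 1 and 23 in replicate 2, against 4392 and 2942 sense reads, an antisense share of 0.678% and 0.776%. Snrpn, a paternally expressed gene for a splicing factor, had 12 and 20 antisense reads, against 2189 and 1345 sense reads. Ywhah, an adaptor protein that binds phosphorylated partners, had 17 and 22 antisense reads, against 2294 and 1399 sense reads. Ppp3ca, the catalytic subunit of calcineurin, had 15 and 10 antisense reads, against 1461 and 904 sense reads. Ndfip1, an adaptor of ubiquitin ligases, had 13 and 11 antisense reads, against 1374 and 825 sense reads. Ppp3ca and Ndfip1 lay near that minimum of antisense reads. The shares of these 5 loci lay above the limit of the 52 spike-ins and on both sides of the pooled ERCC share, which rests on the 4 RNAs read antisense alone. The minimum of reads bears on this comparison as well, so it is a description.

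**Figure D2:**
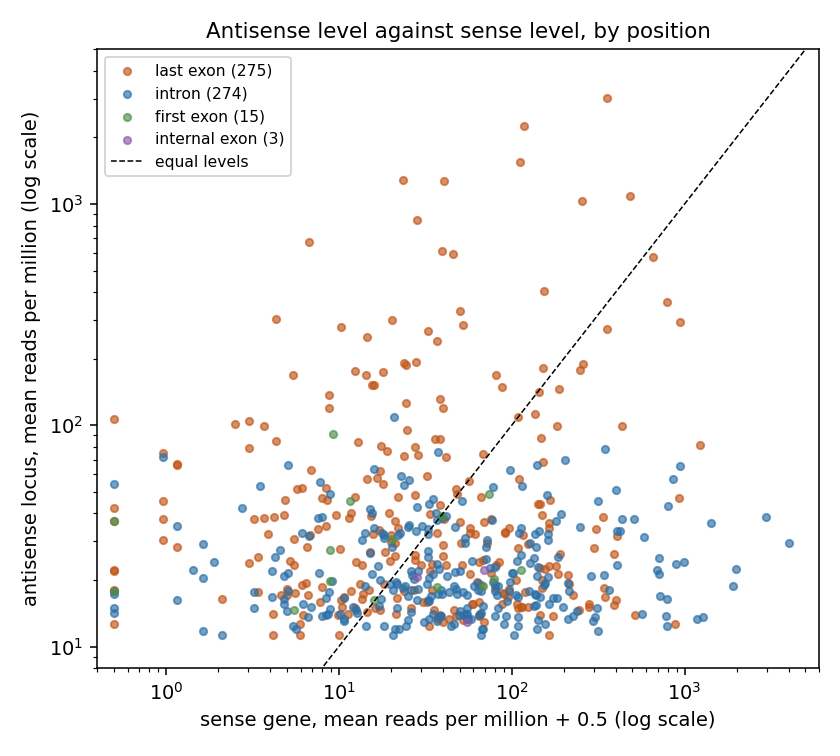
Mean level of each antisense locus against the mean level of its sense gene with 0.5 RPM added, both in RPM on log axes, for 567 loci coloured by position, with a dashed line at equal levels. Last-exon loci fill the upper part of the plot, up to 3019 RPM, while intronic loci reach at most 109 RPM.

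By position, the loci fell into 2 large classes of nearly equal number. A locus was given to the part of the sense gene that held most of the bases it shared with the gene. Last exons held 275 of 567 loci (48.5%) and introns 274 (48.3%), with 15 in first exons and 3 in internal exons. Among the other 9845 loci, 15.3% were in last exons and 80.8% in introns, 1505 and 7951 loci. The share in last exons moved with the read minimum, from 33.3% at 5 or more reads in each library to 62.1% at 20 or more. Reads were shared unequally, with 30768 in replicate 1 and 22721 in replicate 2 on last-exon loci, against 5712 and 6207 on intronic loci. Last-exon loci had a median of 31.5 RPM and a median log2 antisense to sense ratio of 0.33, intronic loci 19.3 RPM and -1.11. This order of the ratios held for all reads of the sense gene and turned with sense reads of models whose exons lay over the locus. The median log2 ratio was then 0.92 for last-exon loci and 4.15 for intronic loci. With loci without such reads at 3 reads it was 0.92 and 2.22.

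Last-exon loci lay mostly in 3′ untranslated regions. Of 257 with a coding sense gene, 241 (93.8%) had more bases there than in coding sequence and 5′ untranslated region, and 62 touched coding sequence. Their midpoint lay at a median of 0.960 of the way along the sense gene, and 170 of 275 (61.8%) lay between 0.9 and 1.0. The midpoint fell past the end of the gene for 13 further loci and before its start for 10. The 5′ end lay within 50 bases of an annotated end of the sense gene for 68 of the 275 (24.7%), against 430 of 1505 other last-exon loci (28.6%). AI593442, Map1b locus 2, 2900097C17Rik and Adam22 were among those whose 5′ end met such an end exactly. By contrast Slc1a2 locus 1 began 4036 bases from the nearest annotated sense end.

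Intronic loci sat toward the start of the gene. Their midpoints had a median of 0.225 along the gene, with 163 of 274 (59.5%) in the first of 3 equal parts, 3 that lay before the start included, and 88 (32.1%) between 0 and 0.1, against 46.5% and 18.3% of the 7951 other intronic loci. The most abundant was in Focad, the gene of focadhesin, at chr4:88095613-88097490 on the minus strand and 0.006 of the way along the gene. It had 83 antisense reads in replicate 1 and 106 in replicate 2, against 28 and 11 sense reads, none of them with an exon over the locus. A 5′ end within 500 bases of an annotated sense start was seen at 36 of 567 loci (6.35%), against 7.10% of the other loci. The most abundant first-exon locus, in the host gene of the neuronal microRNA miR-124 (Mir124a-1hg), was 244 bases long and had 72 and 87 antisense reads, against 6 and 9 sense reads. The most abundant internal-exon locus lay in Tspoap1, a presynaptic binding partner of RIM proteins, with 19 and 20 antisense reads, against 60 and 61 sense reads.

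**Figure D3:**
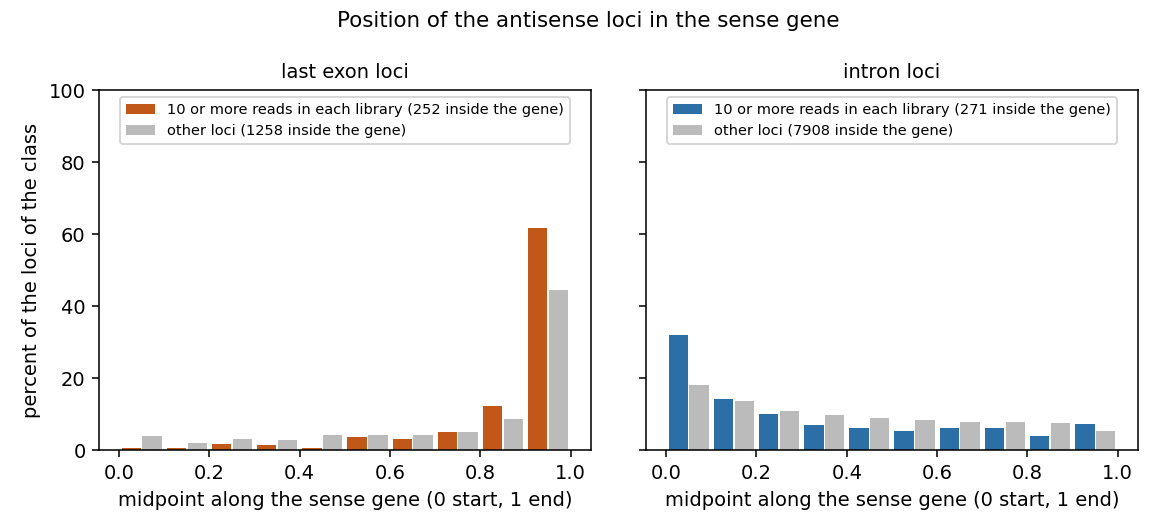
Share of loci (percent of the class, bars) by the midpoint's place along the sense gene, from 0 at its start to 1 at its end in steps of 0.1, for last-exon loci (left) and intronic loci (right). Coloured bars are the loci with 10 or more reads in each library and grey bars the other mouse loci with 2 or more reads. Midpoints outside the gene are not drawn. The step from 0.9 to 1.0 holds 61.8% of the coloured last-exon loci and the step from 0 to 0.1 holds 32.1% of the coloured intronic loci.

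Annotated neighbours on the locus' own strand were few. An annotated gene on the antisense strand overlapped 13 of 567 loci (2.29%), against 134 of the other loci (1.36%). A further 72 loci (12.7%) had such a gene ending within 5 kb upstream, against 741 of the other loci (7.53%). Spliced antisense models overlapped 10 loci (1.76%), against 375 of the other loci (3.81%). Neighbours were counted after other results of these loci were known.

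The 3′ ends of the loci were more alike between the libraries than the 5′ ends. Neither was used by the rule. Between the most abundant model of each library, the 3′ end was at the same base in 333 of 569 loci (58.5%) and within 10 bases in 427 (75.04%). The 5′ end was at the same base in 138 (24.3%) and within 10 bases in 195 (34.3%), with a median distance of 332 bases. Intronic loci had the same 3′ base in 171 of 274 cases (62.4%) and last-exon loci in 146 of 275 (53.1%). Snhg11 shows the pattern, with 3′ ends 10 bases apart and 5′ ends 1111 bases apart, while the ends of Dbpht2 and 2900097C17Rik were the same in both libraries. In all, 447 loci were made of 1 model in each library.

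Last-exon loci often ended just before a genomic run of A. The 20 bases after the 3′ end could be read for 241 of the 275 last-exon loci, and 130 of them (53.9%) held 12 or more A. Windows of 20 bases laid end to end over the last exons of the same sense genes, 87130 in all and read on the antisense strand, held as many in 3.10% of cases. A run of 6 A was present in 127 of the 241 (52.7%) and in 2.27% of the tiled windows. At 48 loci all 20 bases were A. Among the other last-exon loci, 519 of the 1044 that could be read (49.7%) held 12 or more A. Since these are 69.4% of that class, under the 80% taken as needed, the count describes them alone, at a share near the 53.9% of the 241. The loci with 12 or more A had a median of 33.7 RPM and a median log2 antisense to sense ratio of 0.82, the 111 others 32.0 RPM and -0.21. The part of the A stretches in producing these reads was not tested.

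Polyadenylation hexamers were found at a share near that of the last exons at large. AATAAA or ATTAAA was found on the antisense strand in the last 50 bases of 18 of 243 loci (7.41%), against 6.68% of 34568 tiled windows of 50 bases. Neither feature was present at 89 of the 228 loci with both windows (39.0%). At the 5′ end, GGG came directly before the model at 49 of 188 loci, against 1.61% of tiled windows, and at 3 of the 188 in the place 17 bases further up. These 188 are 68.4% of the last-exon loci, under the 80% taken as needed, so a check over the class is void and the count describes the 188 alone. The loci without a window are those whose 5′ flank no single annotated exon holds. Genome strands differed: A-rich ends were seen at 73 of 116 loci on the plus strand and 57 of 125 on the minus strand, and GGG at 11 of 65 and 38 of 123. Intronic loci were not examined for sequence, since only exons could be read.

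**Figure D4:**
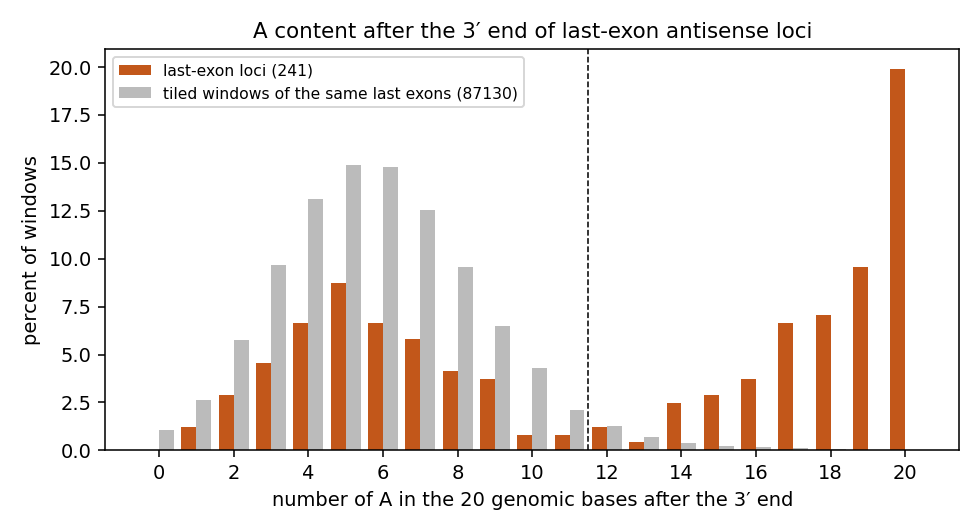
Number of A among the 20 genomic bases that follow the 3′ end (horizontal axis) for 241 last-exon loci (coloured bars) and for 87130 windows tiled over the same last exons (grey bars), as percent of windows. The dashed line marks 12 A. The loci form a second group right of the line, with 19.9% at 20 A, against 0.0425% of the tiled windows.

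Several sense genes held more than 1 locus. Kcnma1, the BK potassium channel, had 4, of which 3 were intronic. Locus 2, in an intron at 0.781 of the way along the gene, had 31 antisense reads in replicate 1 and 45 in replicate 2, and the other 3 had 11 to 13 reads in replicate 1 and 11 to 23 in replicate 2. The sense gene had 36 and 24 reads, none of them with an exon over any of these 4 loci. Ank2, the scaffold ankyrin-B, had 3 loci with 12 to 37 reads in replicate 1 and 12 to 16 in replicate 2, against 121 and 78 sense reads, with locus 3 in the last exon and the others in introns. Slc1a2 locus 2, at chr2:102786910-102789422 on the minus strand, just upstream of locus 1, had 257 and 230 antisense reads, far fewer than the 3081 and 2385 of locus 1. Loci of the same gene share its sense reads and are not independent of each other.

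Gene lists differed in how many of their genes held a locus. As a whole, 384 of 8306 coding genes with 10 or more sense reads in each library (4.62%) held a locus. Of lists chosen with earlier results of these data known, RNA-binding and splicing proteins had a locus in 11 of 34 genes so covered (32.4%), postsynaptic proteins in 8 of 26 (30.8%), cytoskeletal proteins in 7 of 32 (21.9%), synaptic vesicle proteins in 5 of 32 (15.6%) and ion channels and transporters in 3 of 21 (14.3%). Imprinted genes had 6 of 16 (37.5%), a list that includes Snhg11, whose imprinting is uncertain, and noncoding genes such as Meg3 and Rian, which the share over coding genes does not cover. Astrocyte genes had 2 of 20 (10.0%), oligodendrocyte genes 1 of 18 (5.56%, Qk), and genes with a known antisense partner 1 of 10 (Uchl1). Microglial and endothelial genes had 0 of 15 and energy metabolism 0 of 26. These shares are counts with no test. The lists and the coding genes as a whole were not matched for read level or gene length. Slc1a2 stands in both the channel and the astrocyte list.

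The RNA-binding list was led by Matr3 locus 1, an intronic locus with 49 antisense reads in replicate 1 and 83 in replicate 2, against 384 and 252 sense reads. Khdrbs3, a splicing factor of neurons, had 28 and 57 antisense reads in an intron, against 472 and 269 sense reads. Nova2, a neuronal splicing factor, had 60 and 31 antisense reads in its last exon, against 31 and 19 sense reads. Among adhesion proteins of the postsynaptic side, Nlgn3 had 611 and 466 antisense reads, against 47 and 35 sense reads, and Nlgn1 had 78 and 72, against 11 and 11. Nlgn2, of the same family, had 72 and 36 antisense reads, against 108 and 90 sense reads. Actb, the cytoplasmic actin gene, had 354 and 193 antisense reads, against 993 and 725 sense reads. Meg3 locus 2, in the maternally expressed noncoding RNA, had 63 and 106 antisense reads in a last exon, against 338 and 418 sense reads. Nlgn3, Nlgn1 and Nova2 thus had more antisense than sense reads in both libraries, while Nlgn2, Actb, Meg3 and the intronic loci of Matr3 and Khdrbs3 had fewer.

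The libraries differed in intronic loci more than in last-exon loci. Because 10 reads are 9.33 RPM in replicate 1 and 13.3 RPM in replicate 2, the rule itself favours loci that are high in replicate 2, and the log2 ratios of the 569 loci, replicate 2 over replicate 1, are a description. Their median was 0.39, against 0.03 for all 13382 features tested, and it was 0.63 for intronic loci, with 249 of 274 above 0, and 0.08 for last-exon loci, with 158 of 275 above 0. Sums over all mouse loci, which the read minimum does not touch, gave the same order. Intronic antisense loci held 2.59% of mouse reads in replicate 1 and 4.26% in replicate 2, and last-exon loci 3.40% and 3.68%. Of 378 intronic loci with 20 or more reads in total, a minimum chosen after seeing the data, 329 (87.0%) were higher in replicate 2, with a median log2 ratio of 0.70, against 177 of 326 last-exon loci (54.3%) and 0.05. These sets contain all 274 intronic and 275 last-exon loci of the rule. Outside the 569 loci, intronic loci held 2.06% of mouse reads in replicate 1 and 3.44% in replicate 2, and last-exon loci 0.530% and 0.661%. Other values also differed between the libraries: markers of choroid plexus, of which 1 of 3 had reads in both libraries, summed to 25.2 RPM in replicate 1 and 258 RPM in replicate 2, markers of oligodendrocytes to 5630 and 3371 RPM, and reads of the class Genomic were 5.80% and 6.15%. Their part in the difference was not tested.

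Levels were compared by an exact binomial test (two-sided) against the ratio of mouse reads. With Benjamini-Hochberg adjustment over all features, 26 of the 569 loci were called, 22 higher and 4 lower in replicate 2. Over all features 2.03% were called, 1.18% higher and 0.844% lower. The rule asked for 10 reads in each library and so favoured loci high in replicate 2, while features needed 10 in total. The numbers called among the loci and the shares over all features are thus not on equal terms. Of the 22, 15 were intronic, 6 in last exons and 1 in a first exon, and the 4 lower ones were in last exons. The test weighs these 2 libraries against counting error alone and says nothing of conditions.

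Pbrm1, a subunit of a chromatin remodeller, had 19 reads in replicate 1 and 50 in replicate 2, with the largest log2 ratio of 1.88 (adjusted p = 4.28e-05, exact binomial test). Dync1i2, an intermediate chain of dynein, had 27 and 61 reads (log2 ratio 1.67, adjusted p = 3.43e-05, exact binomial test). Next came Ntm, an adhesion protein of neurites, with 12 and 27 reads, and Grm7, a presynaptic glutamate receptor, with 17 and 37 reads. These 4 loci are intronic. Snhg11 was the most abundant locus that was higher in replicate 2 by more than 1 on the log2 scale (log2 ratio 1.03, adjusted p = 8.17e-105, exact binomial test). Lower in replicate 2 were Atp2b2, a plasma membrane calcium pump, with 249 and 109 reads (log2 ratio -0.68, adjusted p = 0.00254, exact binomial test), AI593442 (-0.33) and Map1b locus 2 (-0.31).

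**Figure D5:**
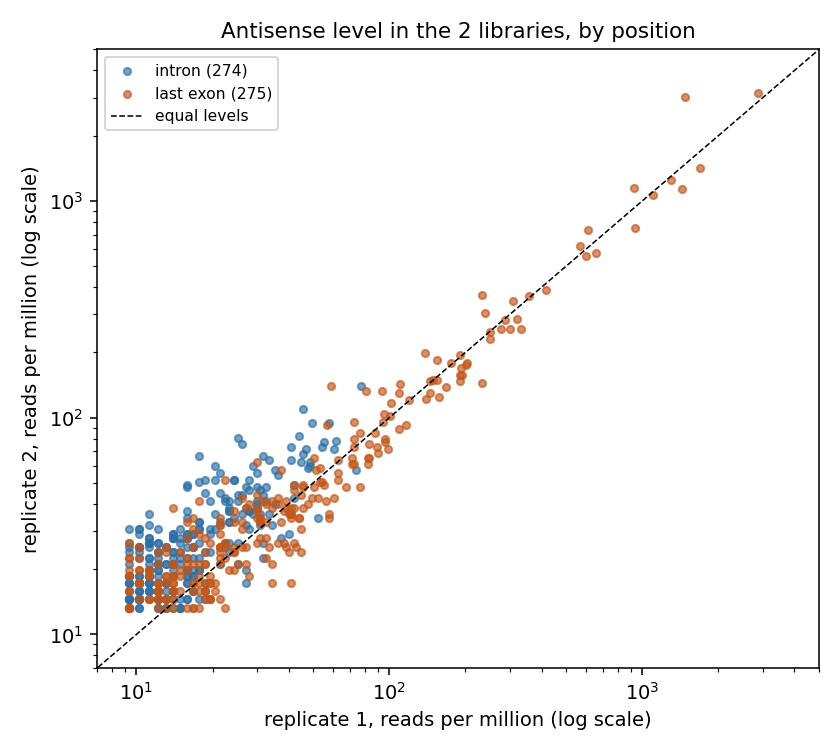
Level of each locus in replicate 2 against replicate 1, in RPM on log axes, for 274 intronic and 275 last-exon loci, with a dashed line at equal levels. Most intronic loci, 249 of 274, lie above the line, while last-exon loci lie on both sides. The lower edges are set by the minimum of 10 reads, 9.33 RPM in replicate 1 and 13.3 RPM in replicate 2.

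Set against its sense gene, the antisense share was called different between the libraries at few loci, while intronic loci as a class were shifted. By a two-sided Fisher's exact test of antisense and sense reads, adjusted over 1713 loci with 10 or more antisense reads in total and a sense read, 12 of 553 loci were called, all of them higher in replicate 2, 10 in introns and 2 in last exons. Among all loci tested, 3.74% were called, 2.92% higher and 0.817% lower in replicate 2. The log2 change of the antisense to sense ratio, replicate 2 over replicate 1, had a median of 0.63 for intronic loci. It was above 0 at 222 of the 270 tested. For last-exon loci the median was 0.08, with 145 of 267 above 0. These medians are a description, since the rule favours loci that are high in replicate 2. Khdrbs3 had an antisense share of 5.60% in replicate 1 and 17.5% in replicate 2 (adjusted p = 1.14e-05, Fisher's exact test). Matr3 locus 1 had 11.3% and 24.8% (adjusted p = 0.000112, Fisher's exact test), and Dync1i2 had 17.4% and 42.7% (adjusted p = 0.00018, Fisher's exact test). At Snhg11 the sense reads differed in the same way as the antisense reads, and its share was 94.9% in replicate 1 and 95.1% in replicate 2 (adjusted p = 1, Fisher's exact test).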

How the data were processed

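The values used here are the deposited raw counts of reads for each model in each library, with the authors' model coordinates on mm10. Per the text files deposited with them, the authors used mm10 and GENCODE M21, and the source field of their unannotated models names TALON. The aligner is not given here by any source. The tables list models with at least 1 read.

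Loci and sense genes were derived from these models and GENCODE M21 exons with Python 3.11.15, NumPy 2.4.6 and SciPy 1.17.1. Sense reads are all reads of the annotated gene. Between-library tests were exact binomial tests over annotated genes, antisense loci and other unannotated models with 10 or more reads in total, and Fisher's exact tests over loci. Both were tested on simulated data with known changes. TMM factors (edgeR 4.0.16, R 4.3.3) and DESeq2 1.42.0 size factors served as alternative totals. With 1 group, no test between conditions could be made. Exonic sequence came from the GENCODE M21 transcripts, and no genome was used.

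Loci were named by rule: the 10 most abundant, the 8 highest and 5 lowest ratios, up to 5 calls in each direction, the most abundant of each class, genes with the most loci, and up to 3 per list. Khdrbs3, Matr3 locus 1 and Dync1i2 were also named from the Fisher calls after their values were seen, as was Snhg11 there. The members and lists were chosen with earlier results of these data known. Genes with near-identical copies or antisense partners are uncertain. Some loci that meet this rule are not reported here.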

Additional observations from a re-analysis of the deposited data

How the results depend on the processing

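The number of loci was 1301 at 5 or more reads in each library and 240 at 20 or more, against 569, and 780 to 809 when a single library was used. The median log2 antisense to sense ratio, reported as -0.44, reversed to 1.26 with sense reads of annotated transcripts alone, to 2.03 with sense reads over the locus and to 0.87 at 20 or more reads, and moved to -0.056 without the class Genomic and to -1.38 at 5 or more reads. In single libraries it ran from -0.70 to -0.24. The share of loci in last exons was 33.3% at 5 or more reads and 62.1% at 20 or more, against 48.5%, and that in introns 63.5% and 35%, against 48.3%. From single libraries the shares ran from 39.8% to 47.9% in last exons and from 48.5% to 56.9% in introns. The share of loci whose antisense share differed between libraries was 1.16% with sense reads over the locus, against 2.17%. The cause of these shifts was not tested. The number of loci called between libraries ran from 19 without a filter on low counts to 32 with reads of annotated genes as the total, against 26. The share with an A-rich stretch ran from 52.1% to 56.8% from single libraries, and with other definitions it was 52.3% and 52.7%, against 53.9%. With coding or long noncoding sense genes alone, added after seeing the data, the median ratio was -0.48. Loci near 10 reads are the least precise. No paired analysis was possible because there was only 1 group of 2 libraries.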
